A study of Caenorhabditis elegans
Pristionchus pacificus with 6 samples.

Results

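The genes described here are 10 C. elegans genes of the endoplasmic reticulum (ER) folding machinery and the unfolded protein response, out of 46958 rows taken as C. elegans and 73268 rows in all. They were listed by name and identifier, with no threshold on a measured value, though earlier results of these data were known when the list was made. All 10 had enough counts to be tested. They are the stress sensors ire-1 (WBGene00002147) and pek-1 (WBGene00003970), the transcription factor gene xbp-1 (WBGene00006959), the BiP-type chaperones hsp-3 (WBGene00002007) and hsp-4 (WBGene00002008), the protein disulfide isomerases pdi-1 (WBGene00003962), pdi-2 (WBGene00003963) and pdi-3 (WBGene00003964), calreticulin (crt-1, WBGene00000802) and calnexin (cnx-1, WBGene00000567).

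Proteins that enter the secretory pathway fold in the ER with the help of BiP, which binds exposed hydrophobic stretches, of disulfide isomerases, which form and rearrange disulfide bonds, and of the lectins calnexin and calreticulin, which hold glycoproteins until they are folded. When unfolded protein accumulates, the membrane sensor IRE-1 removes a short intron from xbp-1 mRNA, and the XBP-1 protein made from the spliced mRNA turns on ER chaperone genes such as hsp-4. PEK-1, the worm form of PERK, lowers translation by phosphorylating the initiation factor eIF2alpha. The adult C. elegans intestine makes and secretes large amounts of yolk protein through this pathway.

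RNA was sequenced from dissected anterior intestines of adult hermaphrodites, grown at 20 °C and dissected 72 hours after egg lay, with 3 libraries for each of 2 strains. Both strains carried cdk-2::ZF::GFP, a tagged copy of a cell cycle kinase gene, and the zif-1(gk117) mutation. The CDK-2gut(-) strain also carried asp-1p::vhhGFP4::zif-1, in which the asp-1 promoter drives a GFP-binding nanobody fused to the degradation adaptor ZIF-1; its intestinal ploidy is reduced, whereas that of the control strain is normal. Lysates were pooled from dissected intestines, and the same amount of lysate from Pristionchus pacificus intestines, dissected at 96 hours, was added to each as a spike-in. How many intestines went into a lysate is not stated. No label ties the libraries to separate cultures, and the p-values therefore cover only the spread among these libraries, which could be technical. Because these are bulk samples, fewer cells of a type and less RNA per cell cannot be told apart.

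Each library held between 9432973 and 15874554 C. elegans counts. Identifiers were not paired with symbols in the sources used here beyond the 10 genes, so markers of the intestine and of other tissues, the level of cdk-2 and the remaining genes of the ER pathway were not analysed here. Levels are given as counts per 1000000 C. elegans counts (CPM), which are not corrected for transcript length and so are compared between libraries and not between genes. Log2 folds are CDK-2gut(-) over control. They come from 2 fits across 8309 tested genes: one scaled to the composition of the C. elegans transcriptome by trimmed mean of M-values (TMM), and one scaled to the spike-in. Unless a replicate block is named, neither fit has a term for replicate number, so the SEs and p-values are unpaired. On the spike-in scale, where same-numbered libraries were taken as pairs, the unpaired SEs thus include the spread among replicate numbers. The median tested gene had a log2 fold of 0.10 in the composition fit, 0.55 in the spike-in fit and 0.51 when plain CPM were fitted. A fold is therefore read against the median of its own scaling, and a CPM ratio stands about 0.40 above the composition fold on the log2 scale.

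In the composition fit, 2 of the 10 genes fell, xbp-1 and pdi-2, where 6.84% of all tested genes fell (edgeR quasi-likelihood test with p-values adjusted by Benjamini-Hochberg, threshold 0.05). At an unadjusted p under 0.05, 5 of the 10 were lower, where 11.4% of all tested genes were. DESeq2 called 6 of the 10 lower (adding hsp-3, pdi-3, ire-1 and pek-1), where it called 9.86% of all genes lower. None of the 10 rose in the composition fit, where 11.8% of all tested genes rose; 0 of the 10 had a positive fold at an unadjusted p under 0.05, and DESeq2 also called 0 higher. In the spike-in fit without a replicate block, xbp-1 alone fell, where 2.47% of all tested genes fell, and 0 of the 10 rose, where 16.4% of all did. At an unadjusted edgeR p under 0.05, 0 were higher there, where 27.5% of all were. By that measure 2 were lower (xbp-1 and pdi-2), where 3.82% of all were. Adding replicate number as a blocking term to the spike-in fit changed this: pdi-1 then rose and xbp-1 fell, 2 of the 10, where 23.9% of all tested genes were called in either direction, 1744 higher and 241 lower. In that blocked fit crt-1 and cnx-1 had folds of 0.42 and 1.08 (edgeR adjusted p = 0.0648 and 0.056), and pdi-2 had -0.38 (0.0626). The median of all tested genes in it was 0.63, so crt-1 lay below it, pdi-1 close to it and cnx-1 above it. At an unadjusted edgeR p under 0.05, pdi-1, crt-1 and cnx-1 were higher there, where 33.6% of all tested genes were. By the same measure xbp-1 and pdi-2 were lower, where 4.67% were. Within all 3 replicate numbers pdi-1, crt-1 and cnx-1 were higher and xbp-1 and pdi-2 lower. How many of all tested genes kept their direction in this way was not counted. The median log2 fold of the 10 genes was -0.48 in the composition fit, against 0.10 for all tested genes, and -0.0063 in the spike-in fit, against 0.55. Fitted on plain CPM, pdi-1 rose, where 22.0% of all tested genes rose, and xbp-1 and pdi-2 fell, where 3.61% of all fell. Per P. pacificus count, the strains were separated without overlap for 1 of the 10 genes, xbp-1, which was lower, where 22.3% of all tested genes were separated in either direction. All C. elegans counts per P. pacificus count were 5.354, 4.513 and 2.775 in controls 1, 2 and 3. In CDK-2gut(-) libraries 1, 2 and 3 they were 5.188, 4.613 and 2.776. With this range inside both strains, a gene can overlap on that scale though it differs in 1 direction within every replicate number. Overlap there does not show an unchanged gene. In both unblocked fits 8 of the 10 genes lay below the median gene, and pdi-1 and cnx-1 lay above it.

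**Figure D1:**
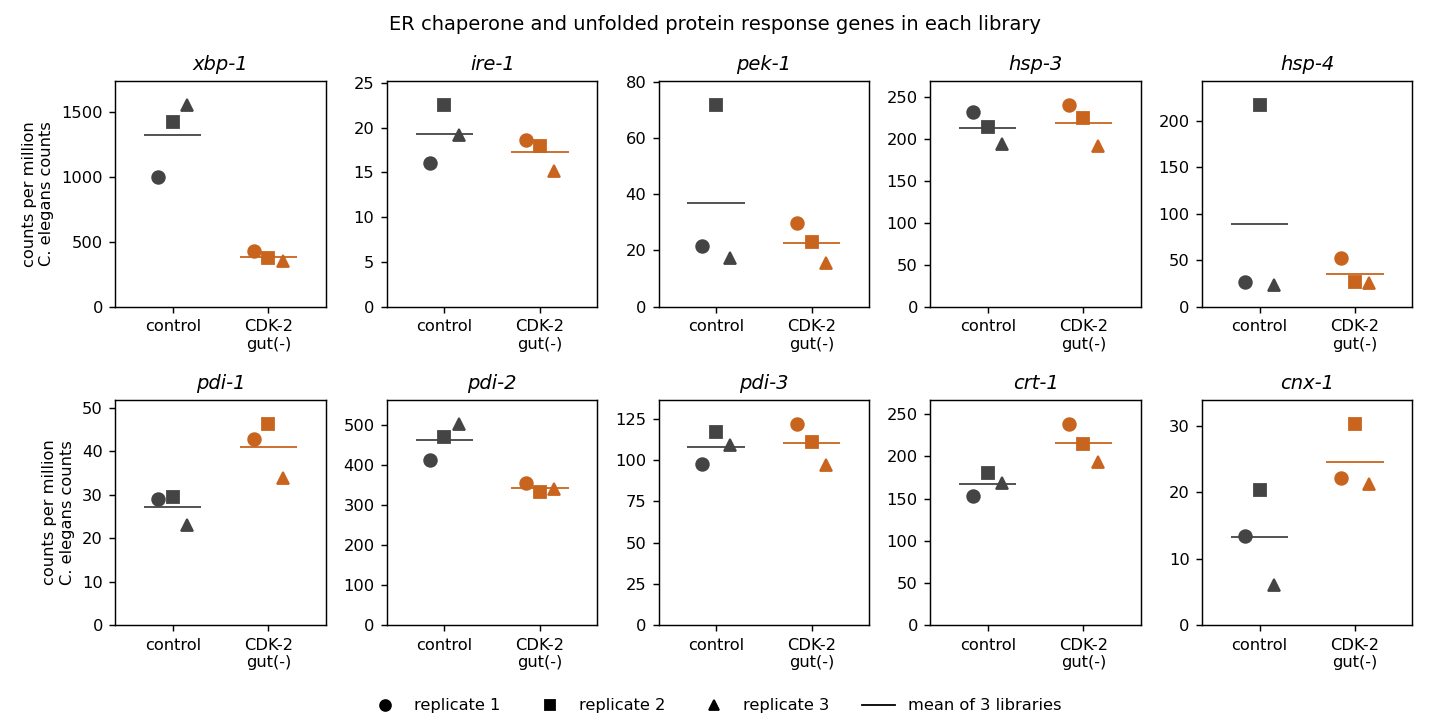
Level of each of the 10 genes in counts per 1000000 C. elegans counts (vertical axis, from 0, scaled for each gene) in 3 control and 3 CDK-2gut(-) libraries; each point is 1 library, its shape the replicate number, and the line the mean of 3. The 3 CDK-2gut(-) libraries lie below every control for xbp-1 (353 to 424 against 1002 to 1553 CPM), and control replicate 2 stands alone for hsp-4 and pek-1.

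The gene xbp-1 encodes the transcription factor of the IRE-1 branch. Control libraries 1, 2 and 3 held 1002, 1423 and 1553 CPM of xbp-1, and CDK-2gut(-) libraries 1, 2 and 3 held 424, 372 and 353 CPM. Every CDK-2gut(-) library lay below every control, with a gap of more than the whole spread of either strain. The means were 1326 ± 288 CPM in control and 383 ± 36.9 CPM in CDK-2gut(-) (SD, n = 3 each), a ratio of 0.289.

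The composition log2 fold of xbp-1 was -2.21 ± 0.22 (SE; edgeR adjusted p = 0.000321), and 1.64% of tested genes had a lower fold. Scaled to the spike-in, it was -1.71 ± 0.18 (SE; edgeR adjusted p = 0.000408). Per P. pacificus count, the log2 difference within replicate numbers 1, 2 and 3 was -1.29, -1.90 and -2.14. The call held in 11 of 11 alternative composition fits, with log2 folds from -2.50 to -1.79, and in 9 of 9 spike-in fits, from -1.88 to -1.55. A count per gene adds the spliced and unspliced forms of xbp-1 mRNA together, so these values say nothing of the share that IRE-1 had spliced.

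The sensor gene ire-1, whose product splices xbp-1 mRNA, passed neither edgeR fit. It stood at 16.0, 22.5 and 19.2 CPM in control and at 18.6, 18.0 and 15.2 CPM in CDK-2gut(-), and the strains overlapped. Its composition log2 fold was -0.57 ± 0.18 (SE; edgeR adjusted p = 0.0672), and with the spike-in it was -0.09 ± 0.29 (SE; edgeR adjusted p = 0.872). DESeq2 called it lower (adjusted p = 0.0186).

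The count of xbp-1 per count of ire-1, which needs no scaling, was 62.6, 63.2 and 80.8 in the 3 controls and 22.8, 20.7 and 23.3 in the 3 CDK-2gut(-) libraries. The strains were thus apart in the balance of these 2 genes whatever the library scale. This pair was picked after the values were seen and is given as a description.

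The second sensor gene, pek-1, gave 21.7, 71.7 and 17.1 CPM in control and 29.7, 22.8 and 15.3 CPM in CDK-2gut(-). Control replicate 2 stood 2.41-fold above the highest of the other 5 libraries, which overlapped across strains. The composition log2 fold was -1.06 ± 0.50 (SE; edgeR adjusted p = 0.221) and became -0.44 without that library. With the spike-in it was -0.63 ± 0.62 (SE; edgeR adjusted p = 0.549) and turned to 0.27 without it. DESeq2 called pek-1 lower (adjusted p = 0.0401), as did edgeR with no filter on low counts (adjusted p = 0.0056). Both of those fits include control replicate 2.

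**Figure D2:**
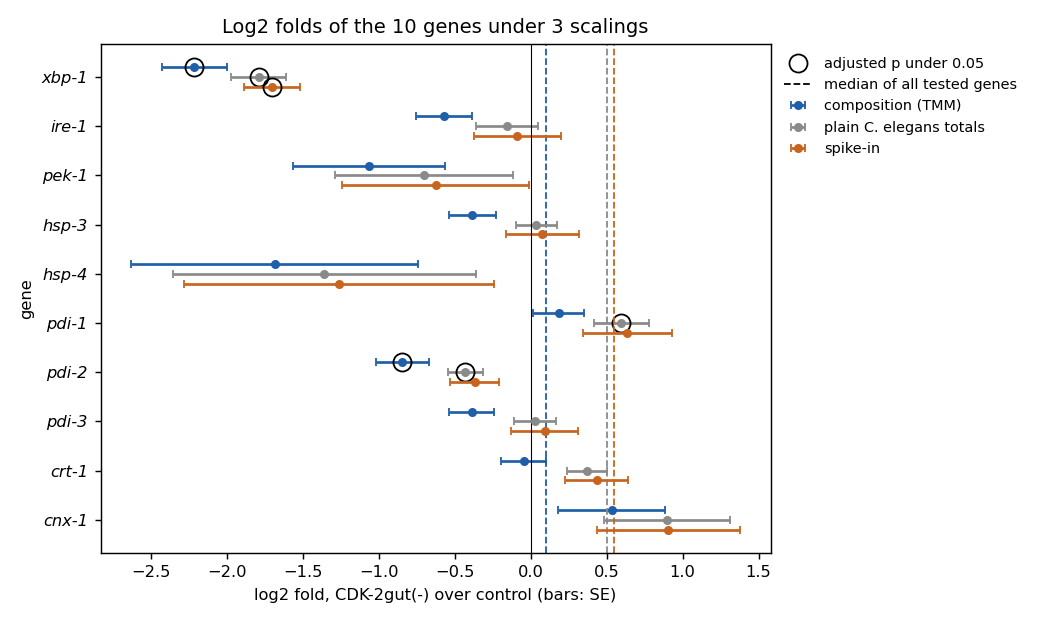
Log2 fold of CDK-2gut(-) over control (horizontal axis) for the 10 genes under composition, plain-total and spike-in scaling; points are fitted folds, bars are SE over 3 libraries per strain, black rings mark an adjusted p under 0.05 and dashed lines the median of all tested genes. Folds of xbp-1 lie between -2.21 and -1.71 under the 3 scalings, while those of hsp-3 and pdi-3 lie below 0 with composition scaling and slightly above 0 with the other 2.

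The BiP genes hsp-3 and hsp-4 encode closely related chaperones, and reads that mapped to several places had been left out, so reads shared by the 2 genes would be missing from both. In C. elegans, hsp-4 is the strongly stress-induced form and the usual reporter of the response, and hsp-3 is made constitutively. The level of hsp-3 was 232.6, 214.8 and 194.2 CPM in control and 240.7, 225.1 and 191.6 CPM in CDK-2gut(-), with the strains overlapping. Its log2 fold was -0.38 ± 0.15 (SE; edgeR adjusted p = 0.127) in the composition fit and 0.08 ± 0.24 (SE; edgeR adjusted p = 0.87) with the spike-in, so its sign depends on the scaling. It was called lower in the composition fit without control replicate 2 (edgeR adjusted p = 0.0422) and by DESeq2 (adjusted p = 0.0194).

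The level of hsp-4 was 26.3, 216.7 and 23.1 CPM in control and 51.9, 26.6 and 25.1 CPM in CDK-2gut(-). A single library, control replicate 2, stood 4.17-fold above the next highest, CDK-2gut(-) replicate 1, and the other 5 overlapped between strains. The composition log2 fold of -1.68 ± 0.95 (SE; edgeR adjusted p = 0.325) shrank to -0.18 without control replicate 2. With the spike-in it was -1.26 ± 1.02 (SE; edgeR adjusted p = 0.472), and 0.55 without that library. No strain difference in hsp-4 was therefore detectable.

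Within a library, hsp-4 counts per hsp-3 count were 0.113, 1.01 and 0.119 in control and 0.216, 0.118 and 0.131 in CDK-2gut(-). The mean log2 ratio in CDK-2gut(-) minus that in control was -0.67 (exact permutation test, two-sided, p = 0.9; with 3 against 3 libraries the smallest possible p is 0.1). Without control replicate 2, the other controls still overlapped with the CDK-2gut(-) libraries, and the difference was 0.37, in the other direction (exact permutation test, two-sided, p = 0.4). Neither of these permutation tests could reach 0.05 with so few libraries.

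Among the 3 controls, replicate 2 stood 8.77-fold above the mean of replicates 1 and 3 for hsp-4, 3.69-fold for pek-1 and 2.10-fold for cnx-1. For cnx-1 this went with a low control replicate 3 (13.4, 20.3 and 5.98 CPM in controls 1, 2 and 3). There control replicate 2 stood at only 0.67 of the highest other library, unlike for hsp-4 and pek-1. For the other 7 genes it stood between 1.01-fold and 1.28-fold, hsp-3 and xbp-1 among them. The SD of log2 CPM among controls was 1.81 for hsp-4, 1.10 for pek-1 and 0.88 for cnx-1, against a median of 0.44 over all tested genes, and 0.12 to 0.33 for hsp-3, the 3 disulfide isomerases, crt-1, xbp-1 and ire-1. Among CDK-2gut(-) libraries it was 0.58 for hsp-4, 0.48 for pek-1 and 0.28 for cnx-1, against a median of 0.28. Of all tested genes, 84 were at least 2-fold higher in control replicate 2 than in each other library, hsp-4 and pek-1 among them. The same count was 9 and 6 for controls 1 and 3 and between 11 and 55 for CDK-2gut(-) libraries. At 4-fold the order differed, with 5 genes for control replicate 2, hsp-4 among them, and 26 for CDK-2gut(-) replicate 3. Control replicate 1 had 1 such gene and each remaining library 0. What set control replicate 2 apart for hsp-4 and pek-1 was not tested.

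Over the 6 libraries, the 2 tested genes most like hsp-4 in log2 CPM were WBGene00011737, with a Pearson correlation of 0.986, and pek-1, with 0.974, of 8308 genes compared. Next among the 10 genes came ire-1, at rank 266 with 0.787. Without control replicate 2 alone, a check added after the data were seen, the correlation was 0.944 for WBGene00011737, 0.838 for pek-1 and 0.310 for ire-1. With CDK-2gut(-) replicate 1 also left out, these being the 2 libraries farthest from the median of hsp-4, it was 0.484, 0.702 and -0.467. In those 4 libraries cnx-1 (0.831), hsp-3 (0.797) and pdi-1 (0.788) were more like hsp-4 than pek-1 was, so the order depends on the 2 libraries left out. All genes of a library share its depth, and these values are descriptions of 6 libraries.

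Of the 3 disulfide isomerase genes, only pdi-2 fell in the composition fit. Its level was 411.9, 470.3 and 503.5 CPM in control and 354.5, 333.3 and 341.3 CPM in CDK-2gut(-). No CDK-2gut(-) library reached the lowest control, and the CDK-2gut(-) libraries lay close to one another, with an SD of 10.7 CPM against 46.4 CPM in control (n = 3 each). The composition log2 fold was -0.85 ± 0.18 (SE; edgeR adjusted p = 0.0116). The call was lost without control replicate 1 (edgeR adjusted p = 0.062), CDK-2gut(-) replicate 1 (0.0637) or CDK-2gut(-) replicate 2 (0.0813), while the fold stayed between -1.08 and -0.73. Per spike-in count pdi-2 did not pass (edgeR adjusted p = 0.156), at a log2 fold of -0.37 ± 0.16 (SE). With replicate number as a blocking term it was -0.38 ± 0.11 (SE; edgeR adjusted p = 0.0626), which did not pass either.

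The level of pdi-1 was 28.9, 29.3 and 23.0 CPM in control and 42.6, 46.3 and 33.9 CPM in CDK-2gut(-). Here every CDK-2gut(-) library lay above every control. In CPM, 3 of the 10 genes (pdi-1, crt-1 and cnx-1) were higher without overlap, where 39.0% of all tested genes were, and 2 (xbp-1 and pdi-2) were lower without overlap, where 6.50% were. The composition log2 fold of pdi-1 was 0.18 ± 0.17 (SE; edgeR adjusted p = 0.536), close to the median gene. With the spike-in it was 0.64 ± 0.29 (SE; edgeR adjusted p = 0.176), and it passed once replicate number was added as a blocking term, at the same fold of 0.64 (edgeR adjusted p = 0.0297). The median fold of all tested genes in that blocked fit was 0.63, so pdi-1 lay at the typical gene.

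The level of pdi-3 was 97.3, 117.0 and 109.2 CPM in control and 122.0, 111.0 and 97.0 CPM in CDK-2gut(-), and the strains overlapped. Its log2 fold was -0.39 ± 0.15 (SE; edgeR adjusted p = 0.111) in the composition fit and 0.09 ± 0.22 (SE; edgeR adjusted p = 0.817) with the spike-in, so its sign also depends on the scaling. DESeq2 called it lower (adjusted p = 0.0275). Summed over the 3 isomerases, controls held 538.1, 616.7 and 635.8 CPM and CDK-2gut(-) libraries 519.1, 490.6 and 472.3 CPM.

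**Figure D3:**
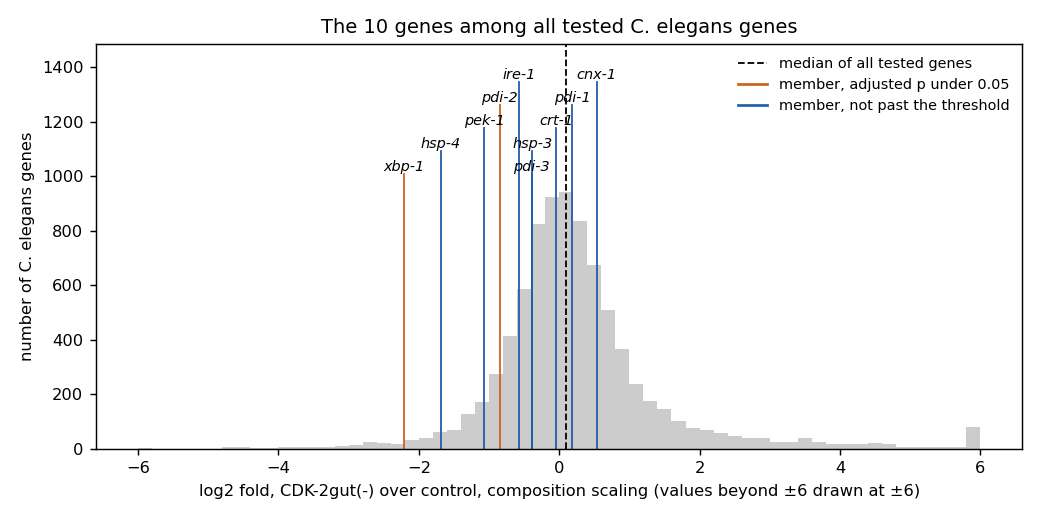
Number of C. elegans genes (vertical axis) by log2 fold of CDK-2gut(-) over control in the composition fit (horizontal axis), with the 10 genes marked by lines and the median of all tested genes dashed. Of the 10, 8 lie to the left of the median and xbp-1, at -2.21, lies farthest from it.

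Of the lectin chaperones, crt-1, soluble calreticulin, stood at 152.8, 179.7 and 168.3 CPM in control and at 238.7, 215.1 and 193.7 CPM in CDK-2gut(-). Each CDK-2gut(-) library lay above each control in CPM, as many genes did. Its composition log2 fold was -0.05 ± 0.15 (SE; edgeR adjusted p = 0.888), and with the spike-in it was 0.43 ± 0.21 (SE; edgeR adjusted p = 0.195), near the median gene both times. With replicate number as a blocking term the spike-in fold was 0.42 ± 0.13 (SE; edgeR adjusted p = 0.0648), which did not pass.

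The membrane-bound calnexin, cnx-1, stood at 13.4, 20.3 and 5.98 CPM in control and at 22.2, 30.3 and 21.3 CPM in CDK-2gut(-). The strains did not overlap, but control replicate 2 lay close below CDK-2gut(-) replicate 3. The lowest value rests on 60 counts, with an exact Poisson 95% interval of 4.56 to 7.69 CPM that covers counting error only. Its log2 fold was the highest of the 10 genes in both fits, at 0.53 ± 0.35 (SE; edgeR adjusted p = 0.381) in composition and 0.91 ± 0.47 (SE; edgeR adjusted p = 0.233) with the spike-in. Neither passed the test. With replicate number as a blocking term the spike-in fold was 1.08 ± 0.31 (SE; edgeR adjusted p = 0.056), which did not pass either. Without control replicate 3, which holds the lowest value, the composition and unblocked spike-in folds were 0.20 and 0.52. Without control replicate 2 they were 0.74 and 1.31.

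Ratios between genes of the same library do not depend on how libraries are scaled. Of the 45 pairs among the 10 genes, 22 had count ratios that did not overlap between strains, where 36.9% of all pairs of tested genes with counts in every library were so separated. Of its 9 partners, xbp-1 was lower against 7 without overlap. The exceptions were hsp-4 and pek-1, the genes in which control replicate 2 stood apart. The gene hsp-4 was separated from none of its 9 partners.

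Some folding genes kept a narrow ratio within each strain and a different one between strains. Counts of pdi-3 per count of crt-1 were 0.637, 0.651 and 0.649 in control and 0.511, 0.516 and 0.501 in CDK-2gut(-). Counts of pdi-2 per count of crt-1 were 2.70, 2.62 and 2.99 in control and 1.49, 1.55 and 1.76 in CDK-2gut(-). Against pdi-3 the ratio of hsp-3 did overlap, at 2.39, 1.84 and 1.78 in control and 1.97, 2.03 and 1.97 in CDK-2gut(-). Thus crt-1 stood higher relative to pdi-2 and pdi-3 in CDK-2gut(-), whereas hsp-3 and pdi-3 were not separated. The pairs named here were chosen after the values were seen.

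**Figure D4:**
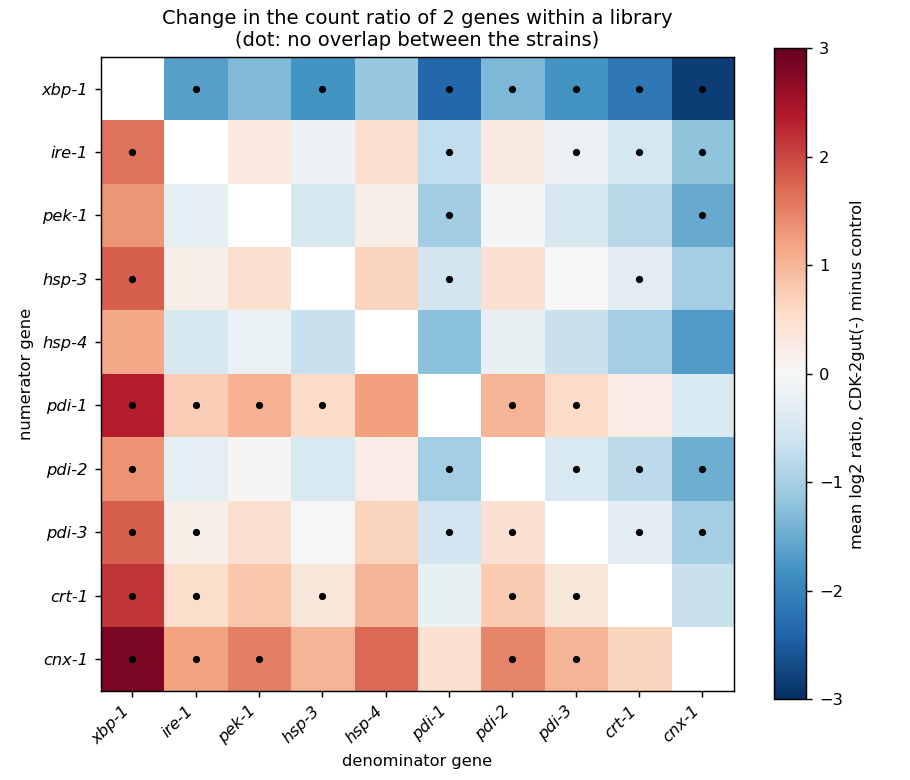
Mean log2 count ratio of the row gene to the column gene in CDK-2gut(-) minus that in control (colour, 3 libraries each), with a dot where the 6 ratios do not overlap between strains. The row of xbp-1 is lower against each of the 9 others, by 1.13 to 2.82 on the log2 scale, with dots for 7, and the row of hsp-4 has no dot.

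As a sum, the 7 folding genes (hsp-3, hsp-4, pdi-1, pdi-2, pdi-3, crt-1 and cnx-1) took 963.1, 1248 and 1027 CPM in control and 1073, 987.8 and 904.0 CPM in CDK-2gut(-), and the strains overlapped. All 10 genes took 2003, 2765 and 2617 CPM in control and 1545, 1400 and 1288 CPM in CDK-2gut(-), without overlap. Leaving out xbp-1, the remaining 9 took 1001, 1342 and 1064 CPM against 1121, 1029 and 934.5 CPM, which overlapped. The separation of the summed level thus came with xbp-1.

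Of the 10 genes, 4 overlap another annotated gene in the WBcel235 RefSeq table: pdi-2 a non-coding RNA gene, crt-1 the gene smut-1, cnx-1 a protein-coding gene and a small nucleolar RNA gene, and ire-1 the gene unc-105. Overlap was taken from whole gene spans, so these genes need not share counted reads. Whether counting used strand is not stated, and whether any reads were shared with, or lost to, the overlapping genes was not tested. The other 6 genes, xbp-1 and both BiP genes among them, overlap none there.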

How the data were processed

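The authors deposited 1 table in which both species' genes have whole-number counts without normalization, from paired reads of low-input libraries per the labels' protocols. Per the submitters' processing notes, STAR and featureCounts were used; their versions, the builds, the annotation and any strand setting are not stated there. By the table's name, reads mapping to several places are not counted. Columns were matched to samples by the names in the labels, groups and replicate numbers by the titles.

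No identifier of the table occurs in the RefSeq gene table used here. The names of the 10 genes come from the list that defines them, and further lists of symbols could not be matched. The genes, lists and tests were chosen with earlier results of these data known. The first 46958 rows were taken as C. elegans and the other 26310 as P. pacificus. The table does not state this split; it was set with the gene list and checked against the counts: among genes whose lowest count was at least 50, the log2 ratio of same-numbered libraries of the 2 strains had a robust SD between 0.65 and 0.72 in the first rows and between 0.22 and 0.25 in the later ones. All 10 genes lie between rows 20627 and 44714.

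All C. elegans genes passing edgeR's filterByExpr were fitted with edgeR 4.0.16 (R 4.3.3), robust quasi-likelihood, adjusted p under 0.05. Library sizes were C. elegans totals with TMM factors for composition, and P. pacificus totals with their own TMM factors for the spike-in, whose error would move all genes alike. SEs were taken as log2 fold over the root of the F statistic. DESeq2 1.42.0, plain totals, no low-count filter, libraries left out and a replicate block were alternatives. The composition fit was also run on simulated counts with set changes, drawn without replicate effects or a deviating library. The outcome of that run is not reported here. Log2 CPM for spreads and correlations used a prior count of 2. All genes of the list are named; likeness to hsp-4 was ranked and the first 2 named. Pair ratios, sums and the counts of genes high in a single library were added after the data were seen.

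Same-numbered libraries correlated in their deviations from the group means at 0.57, 0.58 and 0.85 over P. pacificus genes and at 0.12, -0.05 and 0.21 over C. elegans genes. Above a threshold of 0.1 in every pair, the numbers were taken as pairs for the spike-in scale only. Each species was scaled to its own composition for these correlations. They therefore do not measure the pairing of C. elegans genes on the spike-in scale, which is not reported here.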

Additional observations from a re-analysis of the deposited data

How the results depend on the processing

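The least covered gene, cnx-1, had 60 counts or more in every library, and 3 libraries per strain limit the precision. With plain C. elegans totals 1 of the 10 genes rose (pdi-1; 22.0% of all genes), and the folds of hsp-3, pdi-3 and crt-1 turned positive, at 0.035, 0.029 and 0.37, as that scaling lifts the median gene by 0.40. DESeq2 called 6 genes lower (hsp-3, pdi-2, pdi-3, xbp-1, ire-1 and pek-1), and 9.86% of all tested genes; its median fold was lower by 0.13. Leaving out single libraries gave 1 to 3 of the 10 genes lower in the composition fit, against 3.07% to 8.48% of all tested genes (3 and 8.48% without control replicate 2), with crt-1 from -0.24 to 0.0047, and crt-1 was 0.040 without replicate 3 of both strains. In the spike-in fit, folds without single libraries ranged from -1.81 to 0.55 for hsp-4, from -1.01 to 0.27 for pek-1, from -0.24 to 0.071 for ire-1, from -0.088 to 0.28 for hsp-3 and from -0.081 to 0.25 for pdi-3. The log2 ratio of hsp-4 to hsp-3 ranged from -1.21 to 0.37 and was -0.67 with a pseudocount of 1. For causes beyond the scale shifts, the cause was not tested. The replicate block gave 1 gene higher with the spike-in (pdi-1) and 1 lower (xbp-1), against 1744 and 241 of all 8309 genes. In the composition fit, where same-numbered libraries did not qualify as pairs, this block gave 0 higher and 2 lower, against 10.2% and 5.89% of all tested genes. Paired, the hsp-4 to hsp-3 ratio differed by -0.67 (exact sign-flip permutation test, two-sided, p = 1). With 3 pairs the smallest possible p of that test is 0.25, so it could not pass. The block changed no other call. Of 110 single-gene composition values 95 kept direction and side of the threshold, and of 90 spike-in values 82.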
